A study of Danio rerio with 6 samples.

Results

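The oxidative stress gene osgn1 and the genes of its pathway were followed in the injured ventricle apex of adult zebrafish, in 9 of the 14211 gene IDs measured. The members were found by name: 10 zebrafish gene names were looked up among the symbols known for these IDs, ignoring case and with or without the paralog letter a or b. Of the 10 names 8 had a row. The names slc7a11, for the cystine importer, and txnrd3, for a thioredoxin reductase, had none and were not analysed here. Symbols are printed as the table gives them, so NFE2L2 stands for nfe2l2a. KEAP1 (ENSDARG00000074634) stands beside keap1a (ENSDARG00000016132) as a second Keap1 gene. The symbol prdx1, ignoring case, belongs to 2 IDs, PRDX1 (ENSDARG00000025350) and prdx1 (ENSDARG00000058734). The symbols do not settle whether PRDX1 is prdx1 or another peroxiredoxin gene. The set was chosen by the measured difference of osgn1 between RO and DMSO libraries, and the other genes came for their place around it. The differences of the members are therefore given as a description, and their intervals are those of single genes, not adjusted for the number of genes.

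The 6 libraries came from the apex of cryoinjured hearts of adult AB fish, frozen locally with a cold probe. RO libraries (replicates 2, 3 and 4) came from fish given RO, an inhibitor of gamma secretase, and DMSO libraries (replicates 1, 2 and 3) from fish given the DMSO carrier alone. Both groups had intraperitoneal injections at 24 h and 48 h from injury, and the apex was taken at 72 h. Each library pooled 3 hearts, so the spread between libraries is that between pools of fish. Gamma secretase cleaves Notch receptors and other membrane proteins, so the inhibitor is not specific to Notch, and there were no uninjured hearts among these libraries.

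NRF2, the product of nfe2l2, is the transcription factor that turns on antioxidant genes. In unstressed cells KEAP1 hands it to a CUL3 ubiquitin ligase for destruction, and oxidation of KEAP1 cysteines lets NRF2 build up without any change in its own transcript. Its textbook targets make glutathione (GCLC, GCLM), reduce quinones (NQO1) and keep thiol peroxidases at work. OSGIN1, the human counterpart of osgn1, is an NRF2 target named for induction by oxidative stress and for slowing cell growth. Zebrafish kept a pair of Keap1 genes.

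Levels are given as scaled reads, the deposited values, in which 1 read was worth 0.219 to 0.298 depending on the library. Between 3306018 and 4463303 reads per library stand behind them. Levels were not compared between genes, since no transcript lengths were used. All 9 IDs lay at 6.70 or higher in every library, so none entered the table through 1 group alone. Cardiomyocyte markers summed to 40694 to 46977 scaled reads in RO and 43603 to 53044 in DMSO over 10 IDs, with none at 0. Replicates differed by more than counting error, with a chi-square per degree of freedom of 5.01 to 11.7 between libraries of a group.

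The gene osgn1 (ENSDARG00000052279) stood at 31.6, 30.4 and 31.1 scaled reads in RO replicates 2, 3 and 4, against 16.3, 13.2 and 13.7 in DMSO replicates 1, 2 and 3. All RO libraries lay above all DMSO libraries, with nearly the same level in each RO pool. The values rest on 113, 139 and 128 reads in RO and on 67, 51 and 46 reads in DMSO. The means were 31.0 ± 0.566 in RO and 14.4 ± 1.67 in DMSO (SD, n = 3 each), and the log2 difference was 1.09 (SE 0.148, 95% interval 0.76 to 1.42), a ratio of 2.13 (1.70 to 2.67). The coefficient of variation among libraries was 1.82% in RO and 11.6% in DMSO, where counting alone gives 8.93% and 13.6% at these reads. The spread between pools was thus no larger than the counting error.

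A gene was called where its adjusted p in the limma fit over all 14211 genes lay below 0.05. Among the members 1 of 9 was called, osgn1, higher in RO, beside 0.647% of all genes called higher and 1.03% called in either direction. This share follows from how the set was chosen, so the call is no test of osgn1 and nothing is read from it. It was lost when DMSO replicate 2 was left out, where its log2 difference was 1.03, and in limma without the mean-variance trend. Leaving out any single library kept the difference between 1.03 and 1.18. Groups did not overlap in 3 of 9, osgn1, keap1a and GCLM, all with RO above, beside 9.32% of all genes with RO above, 9.35% with RO below and 18.7% in either direction. Without osgn1 these were 2 of 8. The other members were also proposed with results of this contrast known, so nothing is read from this count either.

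**Figure D1:**
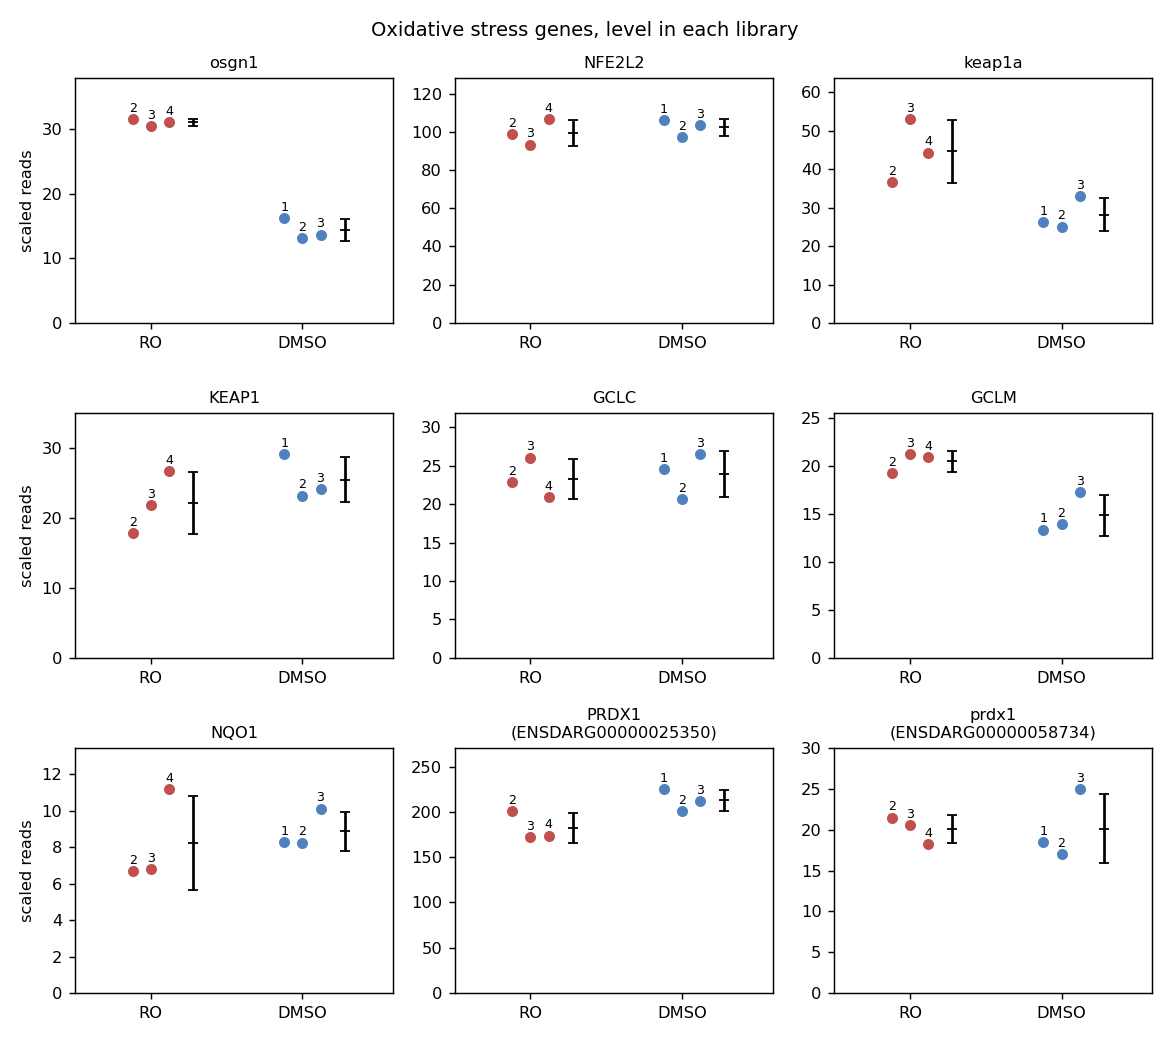
Level of the 9 gene IDs in scaled reads (vertical axes start at 0), with RO libraries in red and DMSO libraries in blue, numbered by replicate. Black bars are the mean and SD of 3 libraries. In osgn1, keap1a and GCLM every RO point lies above every DMSO point, as in osgn1 with RO from 30.4 to 31.6 and DMSO from 13.2 to 16.3.

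In the current RefSeq annotation (GRCz12tu) the span of osgn1 overlaps that of pigu, a subunit gene of the enzyme that attaches GPI anchors, and counting is not stated to have used strand. PIGU (ENSDARG00000075530) stood at 18.2, 16.2 and 14.4 scaled reads in RO and 18.0, 16.3 and 17.0 in DMSO. Its groups overlapped, and its log2 difference was -0.075 (adjusted p = 0.894). The span of prdx1 overlaps fzr1b (ENSDARG00000022810), which stood at 8.94, 10.1 and 12.4 in RO and 9.24, 15.5 and 14.9 in DMSO. That of nfe2l2a overlaps hnrnpa3, which was not analysed here.

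In these bulk samples more cells of a type and more RNA per cell cannot be told apart, and summed markers of several cell types differed between the groups. Beside the counts of called markers stand the 0.647% of all genes called higher. Endothelial and endocardial markers (13 IDs, 8 with a log2 difference above 0 and 3 called higher) summed to 1467 to 1648 scaled reads in RO and 950 to 1174 in DMSO. Macrophage markers (15 IDs, 13 above 0, none called) summed to 1744 to 2372 in RO, highest in replicate 2, and 1346 to 1552 in DMSO. Thrombocyte markers (8 IDs, 7 above 0, 1 called higher) summed to 221 to 364 in RO and 170 to 208 in DMSO. None of these 3 sums overlapped between the groups. The endothelial and macrophage sums were also taken without some of their genes. Without klf2a and klf2b, left out after the values were seen, the endothelial sum was 791, 906 and 848 in RO and 769, 793 and 743 in DMSO, and the groups overlapped. Without the lysosomal genes LGMN and CTSB the macrophage sum was 1034, 803 and 840 in RO and 802, 862 and 560 in DMSO, with overlap too. LGMN and CTSB were also left out after the values were seen. Since both choices followed the values, these overlaps are no test of the number of cells. The endothelial markers called higher were klf2b (log2 difference 1.70), flt1 (0.80) and plvapb (0.75). In CLDN5 (ENSDARG00000014059, 1.08) and klf2a (1.12) RO lay above DMSO in every library without a call. So it did in macrophage genes such as itgae.2 (0.73), MPEG1 (ENSDARG00000043093, 0.70) and cd68 (0.41). Other markers differed little, such as cdh5 (-0.13), tek (-0.043), FLI1 (0.042), marco (0.061) and c1qa (0.031). The second IDs of CLDN5 (ENSDARG00000043716, 0.034) and MPEG1 (ENSDARG00000055290, 0.23) had overlapping groups. TIE1 went the other way, with RO below DMSO in every library (-0.28) and no call. All these examples were singled out after their values were seen. Fibroblast markers (10 IDs, 8 below 0, none called) summed to 5498 to 6740 in RO and 6705 to 8365 in DMSO. Sums of epicardial (1556 to 1796 in RO, 1471 to 1620 in DMSO), erythrocyte (661 to 1597, 737 to 1524) and neutrophil markers (44.4 to 57.4, 25.9 to 64.2) overlapped. The epicardial sum (5 IDs, none called) came mostly from krt94 (log2 difference 0.13) and ALDH1A2 (0.21). The other epicardial markers lay below 0, TCF21 (-0.25), TBX18 (-0.33) and wt1b (-0.84). In wt1b, picked out with its values known, RO lay below DMSO in every library (limma adjusted p = 0.0723). Of 10 cardiomyocyte IDs 4 lay above 0 and 6 below, and 1 was called higher, MYH6 (ENSDARG00000079564, 0.67, limma adjusted p = 0.0454). The other ID of this symbol, myh6 (ENSDARG00000090637), stood at 44.4, 1.31 and 107 in RO and 9.72, 60.4 and 3.27 in DMSO, with overlapping groups. The symbols do not settle which cardiac myosin gene each ID is. No matched marker was at 0 in all libraries. The part of these cell types in the level of osgn1 was not tested.

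Of the regulators of the pathway, NFE2L2 (ENSDARG00000042824), the gene of NRF2 itself, had overlapping groups. It stood at 98.6, 93.3 and 107 scaled reads in RO and 106, 97.3 and 104 in DMSO. The log2 difference was -0.041 (95% interval -0.28 to 0.20), which bounds the ratio between 0.822 and 1.15. Its direction turned without RO replicate 3.

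Neither Keap1 gene was called, and the difference between the pair was not tested. keap1a, one of the adaptors that hand NRF2 to its ligase, stood at 36.6, 53.0 and 44.3 scaled reads in RO and 26.3, 25.0 and 33.0 in DMSO. RO lay above DMSO in every library, with RO replicate 2 and DMSO replicate 3 closest to each other, and the ratio was 1.57 (95% interval 1.21 to 2.03, log2 0.65). KEAP1 stood at 17.9, 21.9 and 26.8 in RO and 29.2, 23.2 and 24.1 in DMSO. Its groups overlapped through RO replicate 4, and its log2 difference was -0.21 (95% interval -0.60 to 0.18), from -0.35 without RO replicate 4 to -0.066 without RO replicate 2.

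Of the reads of both Keap1 genes, keap1a took 67.2%, 70.8% and 62.3% in RO and 47.4%, 51.9% and 57.8% in DMSO. All RO libraries had the higher share, though the counting intervals of the closest pair, RO replicate 4 (56.6% to 67.7%, Wilson) and DMSO replicate 3 (50.7% to 64.6%), overlap. The summed level of the pair was 54.5, 74.9 and 71.1 scaled reads in RO and 55.4, 48.3 and 57.2 in DMSO, and here RO replicate 2 fell within the DMSO libraries. Reads of paralogs can be assigned to the wrong copy, which bears on the share more than on the sum. Intervals of shares cover counting error only.

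**Figure D2:**
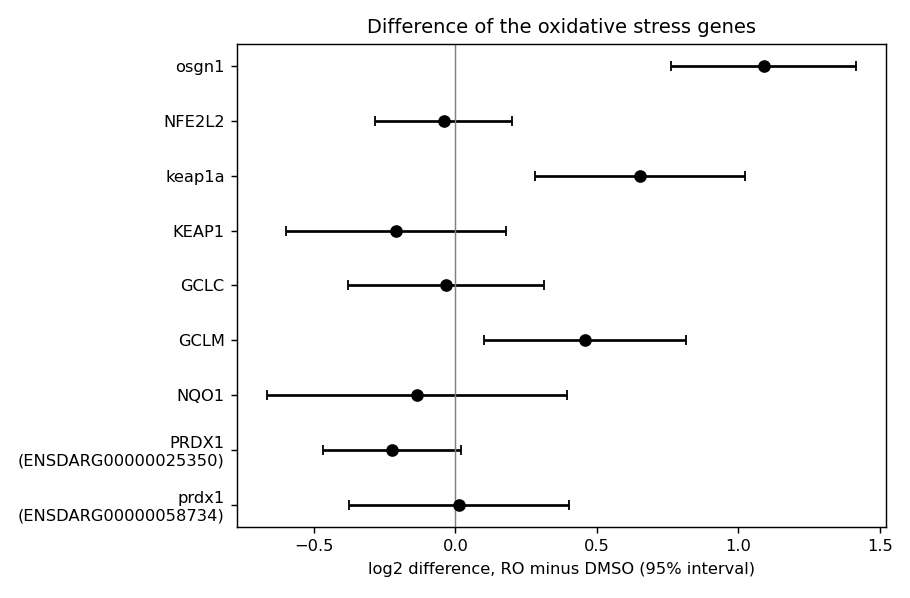
Log2 difference, RO minus DMSO, of the 9 gene IDs with its 95% interval from the limma fit (horizontal axis), genes in the order of the text. The intervals of osgn1 (0.76 to 1.42), keap1a (0.28 to 1.02) and GCLM (0.10 to 0.81) lie above 0, and the other 6 span it.

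Glutamate-cysteine ligase, the enzyme that limits glutathione synthesis, has a catalytic and a modifier subunit. Neither gene was called, and the difference between them was not tested. GCLM (ENSDARG00000018953), the modifier subunit that raises the affinity of the enzyme for glutamate, stood at 19.3, 21.2 and 20.9 scaled reads in RO and 13.4, 13.9 and 17.3 in DMSO. All RO libraries were higher, with DMSO replicate 3 nearest to them, and the ratio was 1.37 (95% interval 1.07 to 1.76, log2 0.46). The catalytic subunit gene GCLC (ENSDARG00000013095) stood at 22.9, 26.1 and 20.9 in RO and 24.6, 20.6 and 26.5 in DMSO. Its groups lay on top of each other, at a log2 difference of -0.034 (95% interval -0.38 to 0.31) that turned without RO replicate 4 or DMSO replicate 3.

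GCLM took 45.7% and 44.9% of the reads of both subunits in RO replicates 2 and 3 and 86 of 172 reads in RO replicate 4, against 35.3%, 40.3% and 39.5% in DMSO replicates 1, 2 and 3. The shares did not overlap between groups, with means of 46.9% ± 2.74 in RO and 38.3% ± 2.70 in DMSO (SD, n = 3 each). The Wilson intervals of single libraries were wide, such as 38.0% to 53.6% in RO replicate 2 and 32.4% to 48.8% in DMSO replicate 2, and overlapped.

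**Figure D3:**
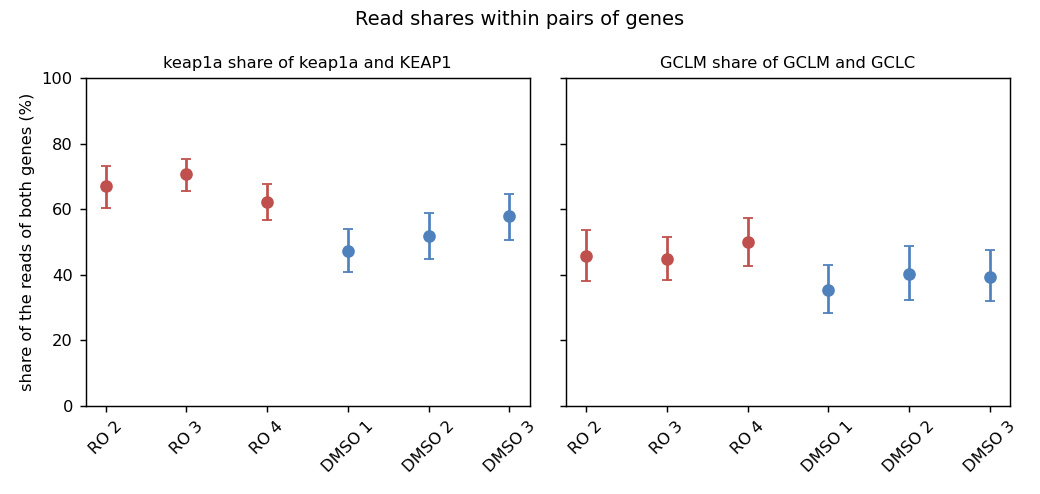
Share of the reads of a pair of genes taken by keap1a (left) and GCLM (right) in each library, in percent, with 95% Wilson intervals that cover counting error. RO libraries (red) run from 62.3% to 70.8% for keap1a and lie at 44.9% or higher for GCLM, and DMSO libraries (blue) run from 47.4% to 57.8% for keap1a and from 35.3% to 40.3% for GCLM.

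The enzymes that act on quinones and peroxides gave overlapping groups. NQO1 (ENSDARG00000010250), a quinone reductase and one of the most used reporters of NRF2 activity, stood at 6.70, 6.79 and 11.2 scaled reads in RO and 8.27, 8.26 and 10.1 in DMSO. These rest on 24 to 46 reads, RO replicate 4 was highest and the other RO libraries lowest, and the log2 difference of -0.14 had a wide interval (-0.67 to 0.39). Without RO replicate 4 it was -0.37, and without RO replicate 2 it was -0.017.

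The peroxiredoxin genes encode thiol peroxidases that remove hydrogen peroxide. PRDX1 (ENSDARG00000025350) stood at 201, 172 and 174 scaled reads in RO and 225, 201 and 212 in DMSO. RO replicate 2 reached the lowest DMSO library, and the log2 difference was -0.22 (95% interval -0.47 to 0.020), between -0.30 and -0.18 when single libraries were left out. The second ID, prdx1 (ENSDARG00000058734), stood at 21.5, 20.6 and 18.3 in RO and 18.5, 17.0 and 25.0 in DMSO. DMSO replicate 3 was highest, and the log2 difference of 0.012 (95% interval -0.38 to 0.40) turned in 4 of 6 cases when a library was left out. Of the reads of both IDs, prdx1 took 9.66%, 10.7% and 9.51% in RO and 7.58%, 7.81% and 10.6% in DMSO. Unlike those of keap1a and GCLM, these shares overlapped between the groups.

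Over the 9 IDs 4 log2 differences lay above 0 and 5 below, with a median of -0.034, beside a median of -0.010 and 48.4% above 0 over all genes. The difference of osgn1, by which the set was chosen, was the highest. Those of the others ran from -0.22 to 0.65, with 3 above 0 and 5 below. The direction of none of the 9 turned under the 11 other pseudocounts, minimum values, scalings and tools tried.

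Profiles over the 6 libraries were compared as the root mean square difference of log2 levels after each gene's mean was subtracted. Among 9585 genes with a symbol and a mean of at least 5, the median distance to osgn1 was 0.586. Of the members keap1a (0.321) and GCLM (0.365) were closest, at ranks 207 and 380. NFE2L2 (0.571), prdx1 (0.579), GCLC (0.581), PRDX1 (0.661), KEAP1 (0.671) and NQO1 (0.671) lay near the median or beyond it. These distances mainly restate the differences between the groups given above, so the ranks add no separate evidence.

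The 6 nearest genes were si:rp71-1c10.7 (0.0992), the Notch antagonist gene NUMB (0.103), the small GTPase gene rhoab (0.120), the chloride channel family gene CLIC2 (0.135), GGPS1 (0.148), which makes geranylgeranyl diphosphate, and the guanine deaminase gene GDA (0.153). All were higher in every RO library than in any DMSO library. NUMB, for instance, stood at 55.0, 60.2 and 56.5 scaled reads in RO and 34.3, 25.3 and 29.5 in DMSO. CLIC2 stood at 649, 738 and 797 in RO and 339, 288 and 352 in DMSO. The likeness follows mainly from the difference between the groups, which these genes share with osgn1 by the way they were found.

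**Figure D4:**
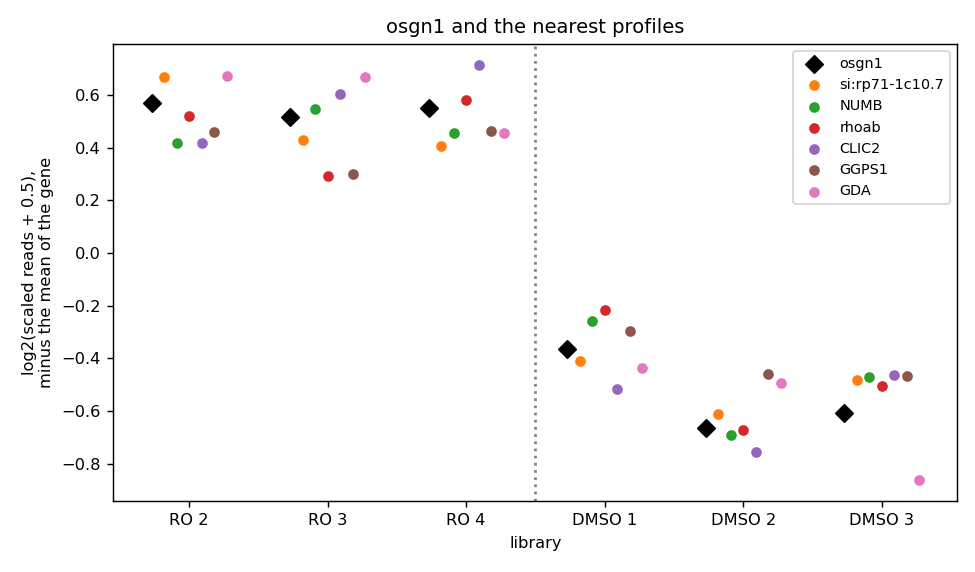
Level of osgn1 (black diamonds) and of its 6 nearest genes (coloured circles) in each library, as log2(scaled reads + 0.5) minus the mean of the gene over 6 libraries. All 7 genes lie above 0 in RO replicates 2 to 4 and below 0 in DMSO replicates 1 to 3.

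Other genes of the redox pathways were taken from 9 lists with 161 IDs in the table. Outside the growth arrest list none of 144 IDs was called by limma, edgeR or DESeq2. In limma 1.03% of all genes were called, a share at which few calls would fall among 144 IDs. Nothing is therefore read from their absence. By limma, edgeR and DESeq2, 13, 14 and 9 of the IDs lay at an unadjusted p below 0.05. For limma that is 9.03%, beside 13.4% of all genes, and no such share is given for the other tools. Their median log2 difference was -0.020, with 70 above 0 and 74 below.

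The partners and antagonists of NRF2 and KEAP1 differed little. Of 14 IDs 12 lay above 0, at a median log2 difference of 0.098, beside 48.4% and -0.010 for all genes. CUL3, the scaffold of the ligase, stood at 52.5, 59.8 and 52.6 scaled reads in RO and 48.9, 51.9 and 51.2 in DMSO, with RO just above in every library (adjusted p = 0.742). bach1a, of a repressor that competes with NRF2 for its sites, stood at 22.9, 25.4 and 24.8 in RO and 31.6, 28.6 and 33.6 in DMSO, with RO below in every library (adjusted p = 0.292). NFE2L1, of a factor related to NRF2, stood at 31.0, 37.2 and 39.2 in RO and 32.6, 20.1 and 31.0 in DMSO (adjusted p = 0.432). CUL3 was singled out for its role after its values were seen.

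Among 38 IDs of glutathione synthesis and use, 17 lay above 0 and 21 below, at a median of -0.035. gpx4a, of the peroxidase family that repairs lipid peroxides, stood at 25.1, 19.7 and 36.3 scaled reads in RO and 14.3, 17.6 and 12.5 in DMSO (log2 difference 0.82, adjusted p = 0.126). slc3a2a, of the heavy chain that pairs with the cystine importer SLC7A11 and with other amino acid transporters, stood at 65.9, 44.0 and 41.1 in RO and 33.5, 35.9 and 28.6 in DMSO (0.59, adjusted p = 0.175). In both genes RO lay above DMSO in every library. GPX4 (ENSDARG00000076836, -0.065) and SLC3A2 (ENSDARG00000037012, -0.024), matched to the paralog names gpx4b and slc3a2b, had overlapping groups. These 2 IDs were singled out after their values were seen. The glutathione reductase gene GSR, singled out for its role after its values were seen, stood at 45.8, 44.7 and 42.8 in RO and 44.97, 45.4 and 39.0 in DMSO (0.045, 95% interval -0.23 to 0.32).

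Among 18 thioredoxin and peroxiredoxin IDs the median was -0.039 and the range -0.36 to 0.37. TXNL1, a thioredoxin-like gene, stood at 74.0, 60.0 and 58.2 scaled reads in RO and 54.9, 53.4 and 48.5 in DMSO (adjusted p = 0.386). MSRB1 (ENSDARG00000025436), of an enzyme that repairs oxidized methionine, stood at 41.1, 38.8 and 43.3 in RO and 46.4, 45.9 and 52.1 in DMSO (adjusted p = 0.481). The other MSRB1 ID (ENSDARG00000045160, log2 difference -0.056) had overlapping groups. The thioredoxin gene TXN and the sulfiredoxin gene SRXN1, both well-known NRF2 targets and singled out for that after their values were seen, had log2 differences of 0.13 (95% interval -0.14 to 0.39) and 0.37 (-0.29 to 1.03).

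Superoxide and peroxide removal was covered by 6 IDs, at a median of 0.11. OXR1, an oxidation resistance gene, stood at 17.6, 15.3 and 20.9 scaled reads in RO and 20.4, 24.3 and 27.98 in DMSO (adjusted p = 0.325). The copper chaperone gene of SOD1, CCS, stood at 2.79, 2.85 and 4.38 in RO and 2.43, 1.29 and 2.08 in DMSO (adjusted p = 0.480), on few reads.

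Of 14 IDs of NADPH supply 12 lay below 0, at a median of -0.13. H6PD, of the hexose phosphate dehydrogenase of the endoplasmic reticulum, stood at 6.70, 9.42 and 9.73 scaled reads in RO and 14.6, 14.5 and 15.5 in DMSO, with RO below in every library (log2 difference -0.77, adjusted p = 0.105). ALDH1L1, of a folate enzyme that makes NADPH, stood at 23.7, 25.6 and 36.0 in RO and 50.3, 32.0 and 37.8 in DMSO (adjusted p = 0.319). The pentose phosphate gene PGD, singled out for its role after its values were seen, had a log2 difference of 0.26 (95% interval 0.012 to 0.52).

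The 22 IDs of quinone, carbonyl and drug metabolism had a median of -0.063, with 8 above 0 and 14 below. BLVRA, of the enzyme that turns biliverdin into bilirubin, stood at 3.07, 4.82 and 4.38 scaled reads in RO and 9.24, 4.90 and 5.36 in DMSO (adjusted p = 0.457). The aldehyde dehydrogenase gene ALDH2 stood at 38.8, 53.4 and 61.6 in RO and 52.5, 71.5 and 67.9 in DMSO (adjusted p = 0.485). Iron storage and export (13 IDs) had a median of 0.068. The iron exporter gene SLC40A1 stood at 58.7, 67.9 and 48.9 in RO and 72.2, 87.0 and 87.5 in DMSO. FTH1, of a ferritin heavy chain, stood at 13.1, 21.5 and 18.5 in RO and 24.6, 24.5 and 26.2 in DMSO. RO lay below DMSO in every library in both, at adjusted p = 0.153 and 0.250. The ferritin gene fth1a had far more scaled reads and overlapping groups, and its levels are given under other observations.

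In the growth arrest list, put beside osgn1 for its name, limma called 3 of 17 IDs lower in RO and none higher, beside 0.387% of all genes called lower. Over the list 5 log2 differences lay above 0 and 12 below, at a median of -0.097. At an unadjusted p below 0.05 in limma lay 8 of the 17, beside 13.4% of all genes. On the reads edgeR called 1 higher and 3 lower, and DESeq2 called 4 lower. How many genes edgeR and DESeq2 called over the whole table is given with the processing. The list held genes known from earlier results of these data to be lower, so its count is no independent evidence. GADD45B (ENSDARG00000027744), a stress sensor gene that restrains the cell cycle, fell to 66.8, 63.3 and 53.5 scaled reads in RO, against 131, 155 and 125 in DMSO (log2 difference -1.16, adjusted p = 0.00309). The other GADD45B ID (ENSDARG00000013576) was not called by limma. GADD45G, of the same family, fell to 46.9, 41.4 and 48.7 in RO, against 88.0, 119 and 101 in DMSO (-1.15, adjusted p = 0.00402). BTG2, an antiproliferative gene, fell to 150, 155 and 94.7 in RO, against 277, 329 and 267 in DMSO (-1.15, adjusted p = 0.0152), a call that ended without DMSO replicate 2 (adjusted p = 0.0842, and 3.04e-07 to 0.147 over the alternatives without the replicate block). Without the mean-variance trend limma called none of the 3.

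The sestrin gene sesn2, of a stress-induced protein that restrains mTORC1, lay just outside the threshold and was singled out after its values were seen. It stood at 13.4, 13.8 and 10.7 scaled reads in RO and 6.08, 4.65 and 6.85 in DMSO, with RO above in every library, at a log2 difference of 1.05 (95% interval 0.57 to 1.54, limma adjusted p = 0.0507). edgeR on the reads called it (adjusted p = 0.0479), while in limma its adjusted p ran from 0.0411 to 0.184 over the alternatives without the replicate block, and DESeq2 gave none.

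The integrated stress response, which through ATF4 also raises genes of cystine uptake, was covered by 19 IDs, 12 of them above 0, at a median of 0.10. atf4b, of its central transcription factor, stood at 308, 293 and 311 scaled reads in RO and 245, 216 and 236 in DMSO, with RO above in every library (log2 difference 0.39, adjusted p = 0.118). ATF3, an immediate early factor of the same family, stood at 187, 160 and 141 in RO and 48.1, 69.9 and 138 in DMSO, where DMSO replicate 3 came close to the RO libraries (1.06, adjusted p = 0.132). Without DMSO replicate 3 its log2 difference was 1.47 and it was called (adjusted p = 0.00631, and 0.00631 to 0.375 over the alternatives without the replicate block).

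**Figure D5:**
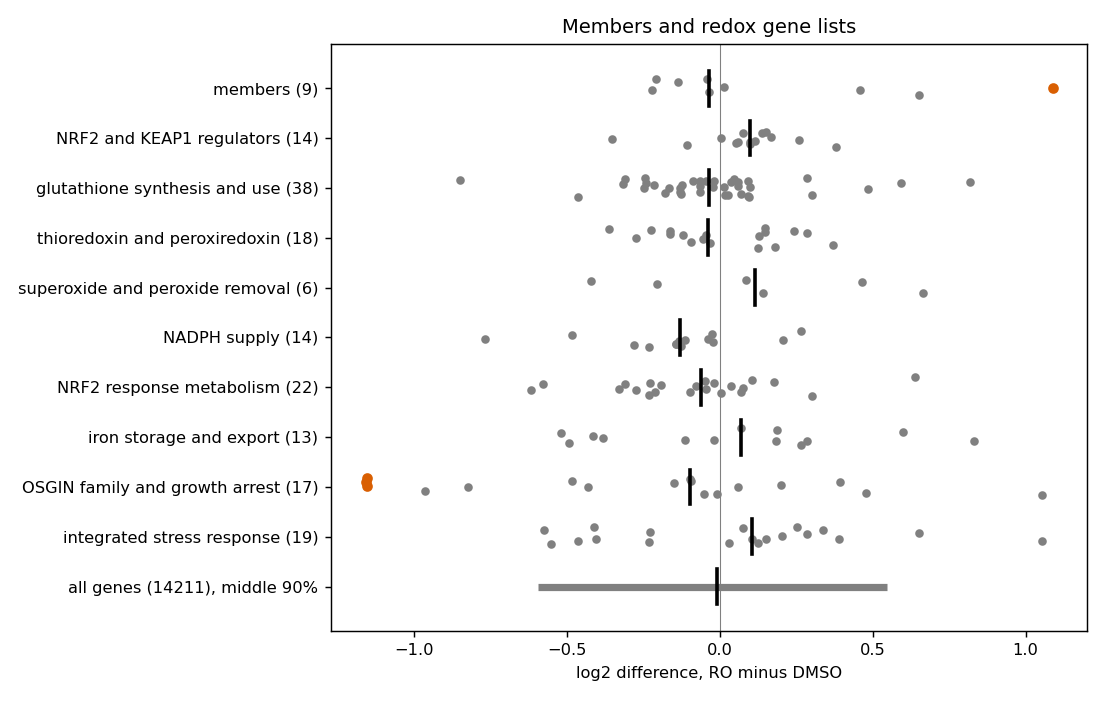
Log2 difference, RO minus DMSO (horizontal axis), of the 9 member IDs and of the IDs of 9 redox lists, 1 point per ID, with called genes in orange and list medians as black bars. The grey bar is the range of the middle 90% of all 14211 genes, from -0.59 to 0.55, and the called points are osgn1 at 1.09 and GADD45B, GADD45G and BTG2 near -1.15.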

How the data were processed

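RNA from 6 libraries of cryoinjured zebrafish ventricle apex was analysed, 3 RO and 3 DMSO, grouped by their titles. Per the labels' protocols, polyA RNA was made into libraries with a TruSeq kit. Tools listed in the submitters' processing notes, without their roles, are RSEM 1.2.3, Bowtie2 2.0.6, edgeR, cutadapt 1.6.1 and CASAVA 1.8, and the build listed is Zv9. Not given in the sources used here: annotation release, use of strand. The authors deposited 1 table of a scaled signal per gene ID. Each value is a whole number of reads times 1 factor per library: 100% came out whole within 0.01 read. Every gene lay above 1 in at least 3 libraries, so genes that stayed lower were not analysed here.

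Gene symbols came from a table of IDs and symbols, with which 11589 of 14211 IDs had one. RefSeq gene spans (GRCz12tu) were used only for which genes overlap. No sequence tables were used, so no sequences are shown. The members and lists were chosen with earlier results of these data known. Of 215 list symbols 157 matched, by the same symbol, without the paralog letter, or by a RefSeq synonym.

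Values were tested as log2(value + 0.5) with limma 3.58.1 (limma-trend, R 4.3.3), as RO minus DMSO with no covariate. All genes passed the planned minimum (1 in 3 libraries). Benjamini-Hochberg adjustment ran over all 14211 genes, and differences on this scale understate those of low genes. The fit called 147 genes, edgeR 4.0.16 on the recovered reads 156 and DESeq2 1.42.0 240. These scripts were tested on simulated data. Named genes are all members, the called genes of each list or else the 2 with the smallest p, and the 6 nearest to osgn1; others are said to be singled out. Alternatives were other pseudocounts, minimum values, scalings, tools, limma settings, a threshold of 0.1, a replicate block and each library left out. The labels give no batch.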

Additional observations from a re-analysis of the deposited data

How the results depend on the processing

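The log2 difference of osgn1 lay between 1.02 and 1.11 over the 11 other settings and tools and between 1.03 and 1.18 when each library was left out, within 1 SD of libraries in all of them. The number of genes called over the table, 147, depended more on the setting. It was 1 in limma without the mean-variance trend, 240 with DESeq2 and 318 at an adjusted p of 0.1, and 22 to 105 when a library was left out (95, 52 and 105 without RO replicates 2, 3 and 4, and 59, 22 and 101 without DMSO replicates 1, 2 and 3). Of the redox list genes 3 were called. None (0) was called without the trend. In that fit 18 of 161 lay at an unadjusted p below 0.05. No such share over all genes is given for it, so nothing is read from this count. edgeR and DESeq2 each called 4, 5 were called at an adjusted p of 0.1, and 2 to 4 when a library was left out. Fewer libraries and the wider threshold are part of these settings by construction, and for the others the cause was not tested.

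Both groups hold libraries numbered 2 and 3, and nothing in the labels says that a number is shared. With the replicate block 405 genes and 6 redox list genes (3 higher, 3 lower) were called, and the difference of osgn1 was 1.18. In that fit RO replicate 4 and DMSO replicate 1 have no partner of their number. Its differences therefore rest on the libraries numbered 2 and 3 alone, and its counts are not like those of the other settings. Deviations from the group means correlated at 0.116 over all genes for the libraries numbered 2 and at 0.0913 for those numbered 3. For pairs of unlike number the correlations ran from -0.116 (RO replicate 2 and DMSO replicate 3) to 0.0433 (RO replicate 4 and DMSO replicate 1). Matching by exact name alone gives 7 member IDs in place of 9, without NFE2L2 and KEAP1. The planned search of promoters was not run, since no promoter sequences were used. Depth limits NQO1 most, at 24 to 46 reads.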

Other observations

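Some redox genes differed more between libraries than between groups, and these were singled out after their values were seen. The transferrin receptor gene tfr1b, which brings iron into cells, stood at 40.8, 38.5 and 11.9 scaled reads in RO replicates 2, 3 and 4, against 26.01, 22.5 and 5.36 in DMSO replicates 1, 2 and 3. RO replicate 4 and DMSO replicate 3 were low, and the groups overlapped (log2 difference 0.83, 95% interval -0.40 to 2.05). Erythrocyte markers, a sum made up mostly of the globin gene hbaa1, stood at 1210, 661 and 1597 in these RO libraries and 1524, 737 and 1019 in these DMSO libraries. The part of red cells in the level of tfr1b was not tested. CTH (ENSDARG00000032206), of the enzyme that makes cysteine from cystathionine, stood at 14.2, 21.2 and 3.89 in RO and 15.6, 21.4 and 22.9 in DMSO, low in RO replicate 4 alone. The other CTH ID (ENSDARG00000074301) stood at 11.7, 10.5 and 12.4 in RO and 14.3, 9.29 and 15.2 in DMSO, and was not low in that library. The ferritin gene fth1a stood at 1301, 694 and 1145 in RO and 960, 867 and 845 in DMSO, lowest in RO replicate 3.

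CHAC1, of an enzyme that breaks down glutathione, stood at 445, 428 and 407 scaled reads in RO and 295, 324 and 434 in DMSO. DMSO replicate 3 alone reached the RO libraries, as it came close to them in ATF3 (adjusted p of CHAC1 = 0.394).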
